A study of Mus musculus with 10 samples.

Results

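The genes described are the matrix metalloproteinases (Mmp), the secreted ADAMTS proteases (Adamts), the ADAMTS-like proteins (Adamtsl) and the tissue inhibitors of metalloproteinases (Timp) of the mouse oviduct infundibulum, the funnel that opens towards the ovary and receives the egg at ovulation. They were chosen by symbol alone, and 51 of the 54256 rows of the expression table carried one: 23 Mmp, 19 Adamts, 5 Adamtsl and 4 Timp genes. RNA was sequenced from infundibula of C57BL/6 mice aged 8 to 10 weeks that had received recombinant murine prolactin (rmPRL) or, as controls, saline for 7 days. Each library pooled the 4 infundibula of 2 animals, so replicates were separate pools, and each group held 5 libraries. By their labels, 9 libraries came from proestrus, the stage before ovulation, and only rmPRL library 2 from diestrus. The titles of the controls add that they are wild type, those of the rmPRL libraries name no genotype, and the labels give no dose.

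Matrix metalloproteinases are zinc enzymes that cut collagens, gelatin, proteoglycans and other proteins of the extracellular matrix, and most are made as inactive precursors that another protease must trim. ADAMTS enzymes have a related catalytic domain and cut proteoglycans such as versican, trim procollagens or process von Willebrand factor, and the ADAMTS-like proteins share their matrix-binding domains but are not proteases. TIMPs bind the active site of these enzymes, and Timp3 also acts on ADAMTS proteases and on some membrane ADAM proteases. In the ovary and oviduct the balance of these enzymes and inhibitors is known for remodelling the matrix around ovulation.

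Values are TPM (transcripts scaled to a common total), a unit meant to correct for transcript length. How the deposited values were computed is not stated, so comparisons between genes take that correction as given. The 10 columns summed to between 999445 and 999607 TPM and held 15975 to 16615 genes at 1 TPM or more. TPM keep no record of sequencing depth, so the counting error of low genes is unknown. The markers of the labelled tissue were present, with Ovgp1, the oviduct glycoprotein of secretory cells, at 4923 to 10134 TPM and Foxj1, the regulator of ciliated cells, at 552 to 821 TPM. Saline library 4 and rmPRL library 2 stood apart in Cyp11a1, the steroid-making enzyme of ovarian luteal and theca cells, at 135 and 125 TPM against 0.340 to 6.27 TPM elsewhere.

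A run of 10 Mmp genes lies on chromosome 9, from base 7272514 to base 7699585 of GRCm38. Its promoters carried certain letters more often than the promoters of the other members or of all genes. RefSeq promoter windows (GRCm38.p6, 250 bases before to 50 after each transcription start) were matched by symbol for 36 of the 51 genes, among them all 10 of the run. The letters TGANTCA, which the AP-1 factors Fos and Jun bind, were found in 8 of the 10 and in 0 of the other 26 members with a window, against 7.81% of the 32851 windows of all genes. The letters TATAAA, which the general transcription machinery binds near many starts, were found in 9 of the 10 and in 3 of the other 26, against 13.6% of all windows. A gene was counted if any of its windows held the letters, and Mmp12 and Mmp7 had 2 windows each, while the shares of all genes are of single windows. Counted by window, 8 of 39 member windows held the AP-1 letters and 12 of 39 the TATA letters. Both strands were searched, and no matches of different motifs overlapped. A match is a description of the letters and not a shown binding site. The 130 bases before the start are printed below for 4 genes of the run that hold both motifs, 5′ to 3′ on the coding strand, with the AP-1 and TATA letters in capitals: Mmp3 at chr9:7445692-7445821, Mmp10 at chr9:7502212-7502341, Mmp13 at chr9:7272384-7272513 and Mmp1a at chr9:7464011-7464140.
Mmp3: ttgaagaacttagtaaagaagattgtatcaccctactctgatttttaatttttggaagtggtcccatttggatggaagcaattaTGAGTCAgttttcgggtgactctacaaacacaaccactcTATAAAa
Mmp10: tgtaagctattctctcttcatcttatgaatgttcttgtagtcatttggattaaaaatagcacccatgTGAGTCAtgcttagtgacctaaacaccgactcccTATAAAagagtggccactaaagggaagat
Mmp13: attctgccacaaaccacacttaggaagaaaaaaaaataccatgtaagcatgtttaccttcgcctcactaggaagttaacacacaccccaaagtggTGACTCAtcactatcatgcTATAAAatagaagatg
Mmp1a: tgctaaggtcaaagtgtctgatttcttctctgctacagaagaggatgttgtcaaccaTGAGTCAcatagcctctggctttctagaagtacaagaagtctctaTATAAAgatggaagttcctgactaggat

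In these 4 stretches the AP-1 letters came before the TATA letters, and they started 35 to 73 bases before the annotated start. The levels of these genes differed although the letters were shared. Mmp10, the second stromelysin, averaged 3.47 TPM over the 10 libraries, and Mmp3, the first stromelysin, averaged 1.53 TPM. Mmp13, a collagenase, averaged 0.698 TPM, and Mmp1a, the mouse counterpart of interstitial collagenase, was listed at 0 in every library.

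Mmp8, a collagenase first described in neutrophils, had the highest mean of the run at 16.8 TPM and no AP-1 letters in its window. Its stretch at chr9:7558299-7558428 is shown as the contrast within the run and holds no capitals, since its TATA letters lie on the other strand across the start, at positions -3 to 3. The window of Mmp27 held neither motif.
Mmp8: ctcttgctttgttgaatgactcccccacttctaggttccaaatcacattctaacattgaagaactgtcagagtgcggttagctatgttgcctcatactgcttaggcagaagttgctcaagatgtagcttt

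STAT5 factors, which prolactin signalling activates, bind TTCNNNGAA, and these letters were found in 8.30% of all windows and in 1 member, Mmp23. Its stretch on the minus strand, chr4:155653291-155653420, is printed with the STAT5 letters in capitals, 98 to 90 bases before 1 of its annotated starts. In the window of another annotated start of Mmp23 the same letters lie at positions -4 to 5, across that start. Adamtsl2, which had the smallest p of the members in the comparison of treatments, is printed from chr2:27079249-27079378 with its TATA letters in capitals. Its window held neither the AP-1 nor the STAT5 letters.
Mmp23: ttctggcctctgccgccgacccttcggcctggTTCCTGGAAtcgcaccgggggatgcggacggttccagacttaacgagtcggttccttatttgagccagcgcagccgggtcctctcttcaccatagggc
Adamtsl2: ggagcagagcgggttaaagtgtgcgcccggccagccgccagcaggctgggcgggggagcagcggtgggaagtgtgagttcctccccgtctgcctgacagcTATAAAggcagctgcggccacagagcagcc

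**Figure D1:**
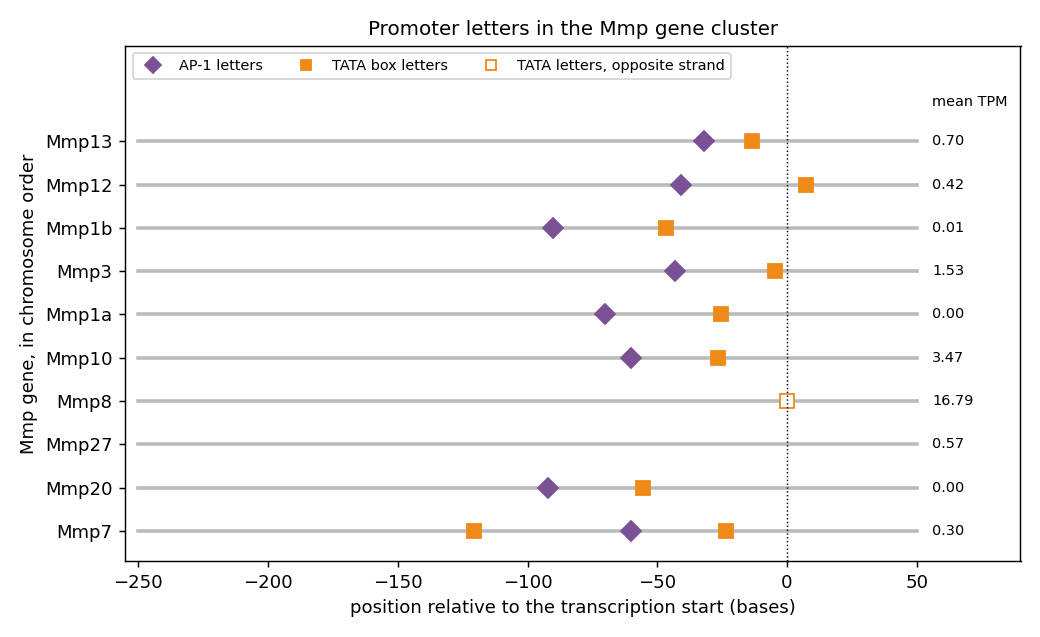
Positions of the AP-1 letters (diamonds) and TATA letters (squares, open on the opposite strand) in the promoter windows of the 10 Mmp genes of chromosome 9, in bases from the annotated transcription start, with each gene's mean TPM over 10 libraries at the right. Of the 10 genes, 8 hold both motifs in a window, and Mmp8, with the highest mean of 16.8 TPM, is not among them.

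Timp4, Timp3 and Timp2 were the 3 most abundant of the genes, while Timp1 ranked 13 at 9.19 TPM. Timp4, an inhibitor known for a restricted tissue range, had the highest mean of all 51 at 139.9 TPM, followed by Timp3 at 95.2 TPM, Timp2 at 94.6 TPM and the protease Mmp14 at 91.4 TPM. The ranges of Timp3 (61.7 to 125 TPM), Timp2 (80.9 to 121 TPM) and Mmp14 (71.6 to 106 TPM) overlapped, so these 3 neighbours in the order were not set apart by the spread between libraries. Timp2, Timp3 and Timp4 together made up 97.7% ± 1.15 (SD, n = 5) of Timp transcripts in saline and 96.8% ± 1.91 (SD, n = 5) in rmPRL.

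Among the proteases, 4 Mmp genes dominated: Mmp14 and Mmp15, which span the membrane, Mmp23, which is held at the membrane by its amino end, and Mmp2, the gelatinase that Mmp14 activates with the help of Timp2. They made up 81.1% ± 2.77 (SD, n = 5) of Mmp transcripts in saline and 81.1% ± 3.43 (SD, n = 5) in rmPRL. The summed Mmp level was 273 ± 32.9 TPM for saline against 267 ± 21.5 TPM for rmPRL, and the summed Timp level was 347 ± 23.8 and 331 ± 16.6 TPM (SD, n = 5 each). The Adamts sum was lower, with 78.5 ± 19.8 TPM for saline against 89.1 ± 26.3 TPM for rmPRL. Transcripts of inhibitors per transcript of Mmp and Adamts protease numbered 0.997 ± 0.130 in saline and 0.939 ± 0.104 in rmPRL. These sums differed between the groups by less than 1 SD of either group, and they were not tested.

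At the other end, 13 of the 51 genes were under 1 TPM in every library. Mmp1a and Mmp20, the enamel protease of the tooth, were listed at 0 in all 10 libraries. Mmp1b, Mmp21, Mmp24, Mmp25, Adamts13 and Adamts20 stayed at or under 0.198 TPM. Mmp7, Adamts3, Adamts17, Adamts18 and Adamtsl3 reached at most 0.525, 0.667, 0.425, 0.437 and 0.982 TPM. Adamts13, the von Willebrand factor protease, averaged 0.0604 TPM, and Mmp7, the matrilysin of many glandular epithelia, averaged 0.299 TPM.

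**Figure D2:**
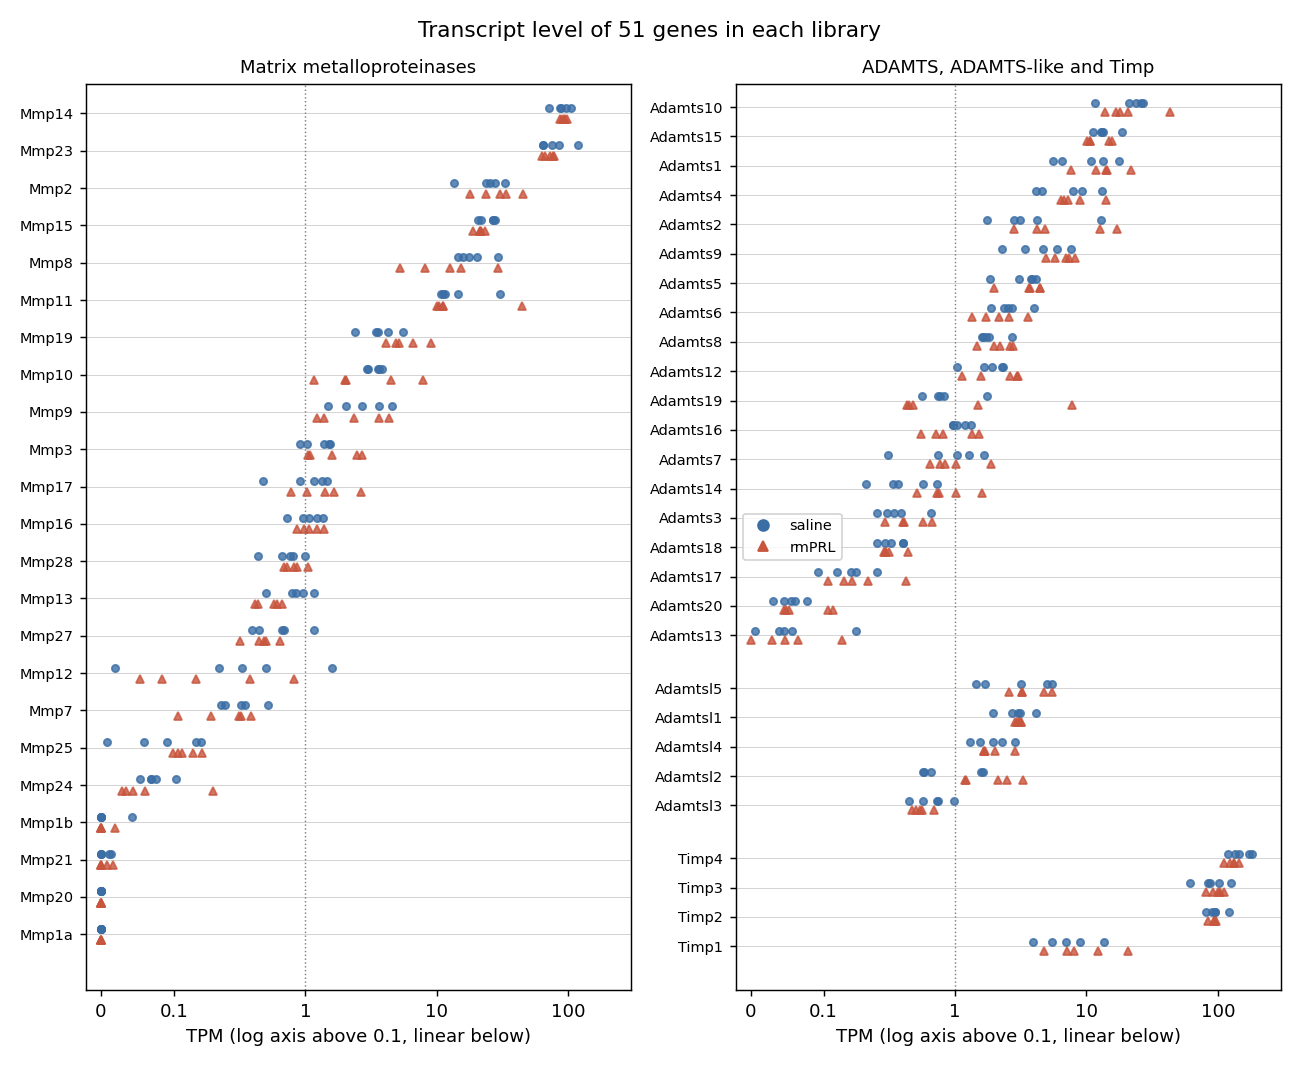
TPM of each of the 51 genes in every library (circles, 5 saline libraries; triangles, 5 rmPRL libraries) on an axis that is logarithmic above 0.1 TPM and linear below it, with a dotted line at 1 TPM. The symbols of the groups overlap in every row with a level above 0, and Timp4, Timp3, Timp2, Mmp14 and Mmp23 lie at the right with means of 76.8 to 139.9 TPM.

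The comparison of rmPRL with saline asks whether 7 days of prolactin altered these genes. Of the 51, 32 had at least 1 TPM in at least 5 libraries and were tested: 12 Mmp, 12 Adamts, 4 Adamtsl and 4 Timp genes. None passed an adjusted p of 0.05 (0 of 32, limma on log2 of TPM + 1 with Benjamini-Hochberg adjustment over all 16131 genes tested), where 4 genes, or 0.0248%, passed among all genes. At an unadjusted p under 0.05 there were 2 of 32 members (6.25%) against 2588 genes, or 16.0%, of all tested, both with higher means in rmPRL. Of these 2, Adamtsl2 passed the filter through the rmPRL group, where it was higher, which limits its p and direction. The groups did not overlap in 0 of 32 members, against 495 genes, or 3.07%, of all tested. The lowest adjusted p of a member was 0.257.

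The direction of the means was higher in rmPRL for 20 of 32 members (62.5%) and for 43.5% of all genes. The median log2 difference was 0.051 over the tested members and -0.026 over all genes. Of the members, 6 of 12 Mmp, 8 of 12 Adamts, 4 of 4 Adamtsl and 2 of 4 Timp genes had the higher mean in rmPRL. The 95% interval of the difference lay within 0.5 on the log2 scale in both directions for 13 members, and within 1 for 27, so small differences were not detectable for most of them.

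**Figure D3:**
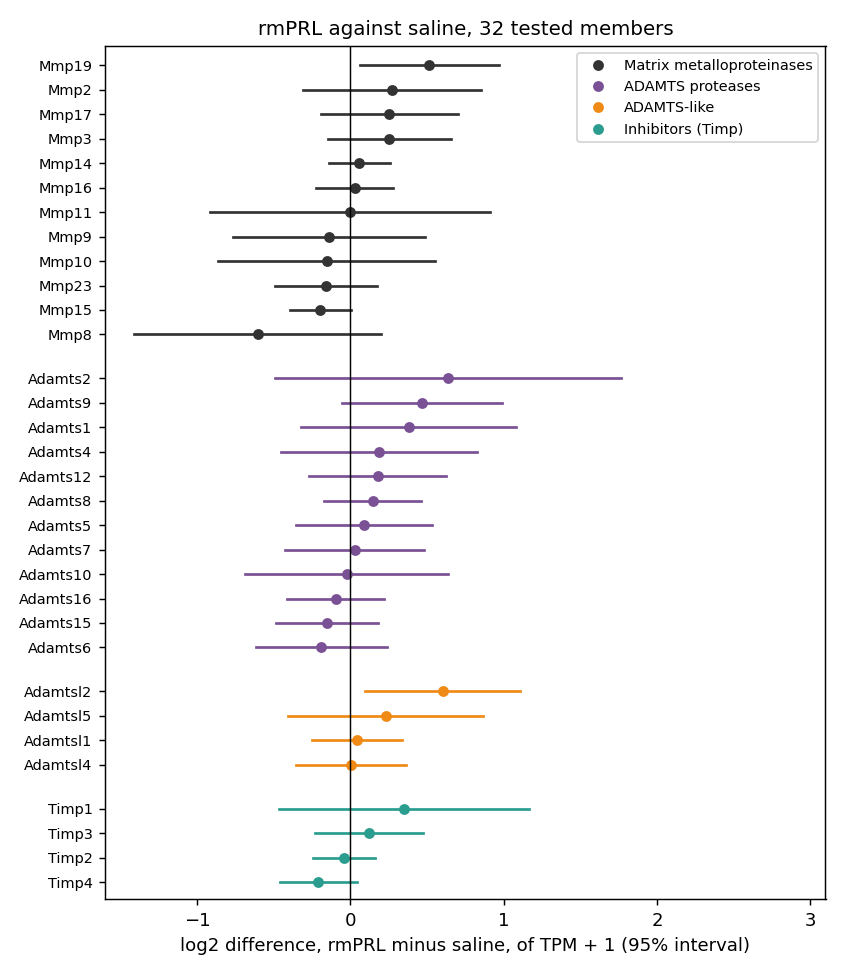
Log2 difference of TPM + 1, rmPRL minus saline, for the 32 tested genes, with the 95% interval of the limma fit, grouped by family. Intervals of Mmp19 and Adamtsl2 lie wholly above 0 before adjustment for multiple tests, and none of the 32 passed after it. Adamtsl2 passed the filter through the rmPRL group, where it was higher.

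Among the inhibitors, Timp4 was at 120.2, 134, 174, 144 and 181 TPM in saline libraries 1 to 5 and at 134, 111, 123, 133 and 145 TPM in rmPRL libraries 1 to 5, and values of other genes follow in the same order. Saline libraries 3 and 5 were above every rmPRL library, and the others overlapped them. The log2 difference was -0.21 (SE 0.115, adjusted p = 0.378). Timp4 lies inside the neuronal gene Syn2 on the opposite strand, and 90 of its exonic bases are shared with that gene, which averaged 7.55 TPM.

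Timp3, the inhibitor that binds to the matrix, was at 125, 87.9, 61.7, 84.6 and 102 TPM in saline and at 81.9, 101, 104, 112 and 92.3 TPM in rmPRL. The highest and the lowest value both came from the saline group. The difference was 0.12 (SE 0.160, adjusted p = 0.729). Timp3 lies inside Syn3 on the opposite strand, and 21.3% of its exonic bases are shared, with Syn3 at a mean of 1.62 TPM. The library kit kept strand, but whether counting used it is not stated, so the values of overlapping genes are uncertain.

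Timp2, which both inhibits Mmp14 and helps it to activate Mmp2, was at 95.1, 121, 80.9, 89.6 and 94.9 TPM in saline and at 84.8, 93.5, 96.3, 94.2 and 95.6 TPM in rmPRL. It was the steadiest inhibitor, and its groups overlapped throughout, with a difference of -0.039 (95% interval -0.24 to 0.16, adjusted p = 0.849). Timp1, an inducible inhibitor that lies inside Syn1, was at 8.93, 3.92, 5.45, 13.6 and 6.95 TPM in saline and at 4.77, 20.8, 8.01, 7.16 and 12.3 TPM in rmPRL. Its highest values in each group were those of saline library 4 and rmPRL library 2. The difference was 0.35 (SE 0.370, adjusted p = 0.646), and 0.084 without rmPRL library 2.

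Of the membrane-anchored proteases, Mmp14 was at 106, 86.2, 71.6, 96.8 and 88.4 TPM in saline and at 86.8, 93.6, 95.4, 90.7 and 98.0 TPM in rmPRL. The rmPRL libraries lay within the saline range, and the difference was 0.058 (95% interval -0.14 to 0.26, adjusted p = 0.766). Mmp15 was at 20.6, 27.6, 27.1, 21.9 and 26.7 TPM in saline and at 23.2, 19.1, 21.8, 21.4 and 21.4 TPM in rmPRL. Saline libraries 2, 3 and 5 were above every rmPRL library, and the others overlapped them. The difference of -0.20 had a standard error of 0.0906 and an adjusted p of 0.312 (unadjusted p = 0.0509).

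Mmp23 was at 64.6, 119.9, 85.0, 64.8 and 75.7 TPM in saline and at 78.1, 77.2, 66.6, 72.9 and 63.0 TPM in rmPRL. Saline library 2 was the highest, and the remaining values of both groups overlapped. Its difference was -0.16 (SE 0.152, adjusted p = 0.607), and -0.015 without saline library 2. It is the member whose promoter stretch with the STAT5 letters is printed above. Mmp16 and Mmp17, at means of 1.09 and 1.29 TPM, had differences of 0.026 and 0.25 (adjusted p = 0.924 and 0.540).

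The gelatinases cut denatured collagen and basement membrane. Mmp2 was at 33.1, 27.9, 13.6, 25.6 and 23.7 TPM in saline and at 18.1, 45.4, 30.3, 23.8 and 33.6 TPM in rmPRL. Saline library 3 was lowest and rmPRL library 2 highest, with overlap between, and the difference was 0.27 (SE 0.263, adjusted p = 0.618). Without saline library 3 it was 0.077, without rmPRL library 2 it was 0.11, and without rmPRL library 1 it was 0.43. Mmp9 was lower in level, with a range of 1.24 to 4.58 TPM over all libraries and a difference of -0.14 (SE 0.286, adjusted p = 0.825), which became 0.0041 without saline library 1 and 0.0090 without rmPRL library 1.

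Of the collagenases, which open the triple helix of fibrillar collagen, Mmp8 alone was tested. It was at 17.7, 29.1, 14.5, 15.8 and 20.2 TPM in saline and at 29.2, 5.30, 12.7, 15.2 and 8.08 TPM in rmPRL. The rmPRL group held both the highest library and the 3 lowest, so the groups overlapped. The difference was -0.60 (95% interval -1.41 to 0.20, adjusted p = 0.415). Leaving out rmPRL library 2 gave -0.34, and leaving out rmPRL library 1 gave -0.91. The neutrophil markers were low, with a summed level of 1.33 to 12.04 TPM in saline against 3.40 to 6.28 TPM with rmPRL, and 2 of 6 under 1 TPM in every library.

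Among the stromelysins, Mmp10 was at 3.64, 3.86, 2.97, 3.61 and 3.03 TPM in saline and at 7.87, 1.16, 2.05, 4.51 and 2.01 TPM in rmPRL. The rmPRL values lay on both sides of the saline range, and the difference of -0.16 (SE 0.323, adjusted p = 0.828) turned to 0.063 without rmPRL library 2. Mmp3 was at 1.53, 1.52, 1.03, 0.909 and 1.40 TPM in saline and at 1.61, 2.46, 1.05, 1.09 and 2.69 TPM in rmPRL, with rmPRL libraries 2, 5 and 1 highest. Its difference was 0.25 (SE 0.183, adjusted p = 0.492), 0.14 without rmPRL library 5 and 0.16 without rmPRL library 2.

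Mmp11, or stromelysin-3, which furin activates inside the cell, was at 11.5, 14.5, 10.8, 30.4 and 11.3 TPM in saline and at 11.3, 44.8, 10.1, 11.1 and 10.5 TPM in rmPRL. A single library in each group stood far above the rest, and the other 8 overlapped. The difference was -0.0046 (SE 0.414, adjusted p = 0.996). It was 0.25 without saline library 4, -0.40 without rmPRL library 2 and -0.14 without both. Mmp11 shares 155 exonic bases with Chchd10 on the opposite strand, a mitochondrial gene at a mean of 560.0 TPM.

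Mmp19 (ENSMUSG00000025355.7, chr10:128790910-128800824, plus strand, GENCODE vM21 on GRCm38), a secreted protease of basement membrane proteins, was 1 of the 2 members with an unadjusted p under 0.05. It was at 5.58, 3.60, 2.40, 4.27 and 3.43 TPM in saline and at 4.14, 6.57, 5.18, 4.93 and 9.02 TPM in rmPRL. Every rmPRL library was above the saline mean of 3.86 TPM, and saline libraries 1 and 4 reached into the rmPRL range. The log2 difference was 0.51 (SE 0.206, 95% interval 0.062 to 0.97, adjusted p = 0.271), and it did not hold up against the adjustment. With the fibroblast marker level of each library as a covariate it was 0.11. Of its exonic bases 22.3% are shared with Tmem198b on the opposite strand, a gene at a mean of 11.4 TPM.

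Adamtsl2 (ENSMUSG00000036040.14, chr2:27079379-27108981, plus strand), a glycoprotein that binds fibrillin microfibrils, was the other. It was at 1.64, 0.576, 0.569, 1.57 and 0.652 TPM in saline and at 1.20, 3.28, 1.21, 2.12 and 2.47 TPM in rmPRL. Of the saline libraries, 3 were below every rmPRL library, and saline libraries 1 and 4 were above rmPRL libraries 1 and 3. The means were 1.00 ± 0.554 TPM for saline against 2.05 ± 0.882 TPM for rmPRL (SD, n = 5 each). The log2 difference of TPM + 1 was 0.60 (SE 0.230, 95% interval 0.098 to 1.11, adjusted p = 0.257), and 0.26 with the fibroblast covariate. Adamtsl2 reached 1 TPM in every rmPRL library but in saline only in libraries 1 and 4, so it passed the filter through the rmPRL group.

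The other ADAMTS-like genes were Adamtsl5, Adamtsl1 and Adamtsl4 at means of 3.61, 3.02 and 1.98 TPM. Adamtsl5 was at 5.46, 5.03, 1.45, 1.69 and 3.20 TPM in saline and at 4.72, 3.23, 3.23, 5.52 and 2.58 TPM in rmPRL, with saline libraries 3 and 4 lowest. Adamtsl1 was at 4.14, 3.00, 1.96, 2.73 and 3.15 TPM in saline and at 3.19, 3.19, 2.95, 2.88 and 3.06 TPM in rmPRL. Its rmPRL values were close together inside the saline range. Adamtsl4, which also binds fibrillin, was at 2.88, 2.29, 1.29, 1.54 and 1.95 TPM in saline and at 1.66, 1.68, 1.66, 2.02 and 2.86 TPM in rmPRL, with overlap throughout. The differences were 0.23, 0.043 and 0.0033 (adjusted p = 0.706, 0.889 and 0.993). That of Adamtsl5 was 0.049 without saline library 3, 0.083 without saline library 4, 0.11 without rmPRL library 4, 0.37 without saline library 2 and 0.40 without saline library 1.

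The proteoglycanases cut versican and aggrecan, and Adamts1 is known in mouse for cutting versican in the matrix around the ovulated egg. Adamts1 was at 17.7, 6.47, 5.53, 10.9 and 13.4 TPM in saline and at 7.66, 11.8, 14.1, 14.3 and 21.8 TPM in rmPRL. Saline libraries 3 and 2 were lowest and rmPRL library 5 highest, with overlap between, and the difference was 0.38 (SE 0.318, adjusted p = 0.561). Leaving out saline library 3 gave 0.19, rmPRL library 5 gave 0.21, saline library 2 gave 0.24 and saline library 1 gave 0.57. Adamts4 was at 13.0, 4.62, 4.14, 9.29 and 7.93 TPM in saline and at 6.79, 6.42, 7.19, 8.96 and 14.1 TPM in rmPRL. It was lowest and highest in the same libraries as Adamts1, with a difference of 0.19 (SE 0.289, adjusted p = 0.767). Leaving out saline library 3 gave 0.017, leaving out rmPRL library 5 gave 0.013, leaving out saline library 2 gave 0.049, and leaving out saline library 1 gave 0.38.

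Adamts9, the mammalian relative of the worm protease gon-1, was at 7.60, 2.26, 3.43, 5.97 and 4.66 TPM in saline and at 4.96, 8.16, 5.74, 6.99 and 7.38 TPM in rmPRL. Every rmPRL library was above the saline mean of 4.79 TPM, and saline libraries 1 and 4 overlapped the rmPRL range. The difference was 0.47 (SE 0.238, adjusted p = 0.352), and 0.28 without saline library 2. Adamts15 was at 11.3, 18.7, 13.0, 13.1 and 13.3 TPM in saline and at 10.1, 10.6, 15.7, 10.7 and 14.8 TPM in rmPRL, with a difference of -0.15 (SE 0.151, adjusted p = 0.618). Its groups overlapped, saline library 2 was highest, and the difference was -0.048 without it, -0.092 without rmPRL library 1 and -0.24 without rmPRL library 3. Adamts5, the second aggrecanase of cartilage, ranged from 1.85 to 4.42 TPM with a difference of 0.091 (adjusted p = 0.840), and Adamts8 ranged from 1.48 to 2.77 TPM with a difference of 0.14 (adjusted p = 0.625).

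Procollagen N-proteinases remove the amino end of fibrillar procollagens so that fibrils can form. Adamts2 was at 4.21, 2.84, 1.74, 12.9 and 3.12 TPM in saline and at 2.81, 17.0, 4.22, 4.87 and 12.7 TPM in rmPRL. Saline library 4 and rmPRL libraries 2 and 5 were high, and the other 7 were between 1.74 and 4.87 TPM. The difference was 0.64 (SE 0.511, adjusted p = 0.540). Leaving out rmPRL library 2 gave 0.34, and leaving out saline library 4 gave 1.01. Adamts3, the second of them, averaged 0.428 TPM.

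Adamts10, a protease that binds fibrillin, was at 27.0, 24.0, 11.6, 26.2 and 21.0 TPM in saline and at 13.8, 43.2, 18.0, 20.8 and 16.9 TPM in rmPRL. It had the highest mean of the Adamts genes, 22.3 TPM. The rmPRL library 2 was far above the others, which overlapped, and the difference was -0.025 (SE 0.3001, adjusted p = 0.97499). Leaving out rmPRL library 2 gave -0.28, and leaving out rmPRL library 1 gave 0.11. The remaining tested Adamts genes, Adamts6, Adamts7, Adamts12 and Adamts16, had means of 1.02 to 2.49 TPM and differences of -0.19 to 0.18.

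Below the filter, 7 members averaged at least 0.5 TPM in a group. They were compared one by one with a two-sided exact permutation test over the 252 assignments of the libraries. Adamts14 was included only through its rmPRL mean (0.925 TPM, with 0.442 TPM in saline). Mmp12 and Mmp27 were included only through their saline means (0.537 and 0.670 TPM, with 0.297 and 0.479 TPM in rmPRL). The choice thus used the groups compared, which limits these p-values. Mmp13 was at 0.500, 1.16, 0.857, 0.954 and 0.796 TPM in saline and at 0.669, 0.416, 0.613, 0.578 and 0.435 TPM in rmPRL. Saline library 1 fell within the rmPRL range, and the other saline libraries were above it. The difference was -0.26 (exact permutation p = 0.0317, 0.139 adjusted over the 7).

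Adamts14, the third procollagen N-proteinase, was at 0.726, 0.339, 0.210, 0.567 and 0.368 TPM in saline and at 0.514, 1.02, 0.729, 0.755 and 1.60 TPM in rmPRL. Only saline libraries 1 and 4 were above an rmPRL library, library 1 of that group. The difference was 0.40 (exact permutation p = 0.0397, 0.139 adjusted over the 7). Neither Mmp13 nor Adamts14 passed the adjustment.

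Adamts19 was at 0.770, 0.564, 0.749, 1.74 and 0.820 TPM in saline and at 0.429, 7.82, 0.482, 0.448 and 1.49 TPM in rmPRL, with rmPRL library 2 far above the rest (difference 0.30, exact permutation p = 0.754, and -0.19 without that library). Mmp12, the macrophage elastase, was at 0.503, 1.61, 0.331, 0.221 and 0.0190 TPM in saline and at 0.147, 0.820, 0.0539, 0.377 and 0.0837 TPM in rmPRL. Its groups overlapped throughout (difference -0.20, exact permutation p = 0.524). Mmp27, Mmp28 and Adamtsl3 had differences of -0.16, 0.080 and -0.12 (exact permutation p = 0.246, 0.413 and 0.222).

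Libraries of the same treatment also differed in these genes. Saline library 3 was the lowest of the 10 for 18 of 32 tested members (56.2%), against 13.5% of all tested genes. The rmPRL library 2 was the highest for 10 of 32 (31.2%, against 15.7% of all genes) and rmPRL library 5 for 7 (21.9%, against 7.57%). Without saline library 3, 13 of 31 members had the higher mean in rmPRL in place of 20 of 32. The differences of 5 named members turned in sign, among them Timp3, Mmp14, Adamts5 and Adamtsl1 at -0.015, -0.019, -0.053 and -0.059. Without saline library 2, those of Timp2, Adamts10 and Mmp12 turned to 0.045, 0.020 and 0.015.

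**Figure D4:**
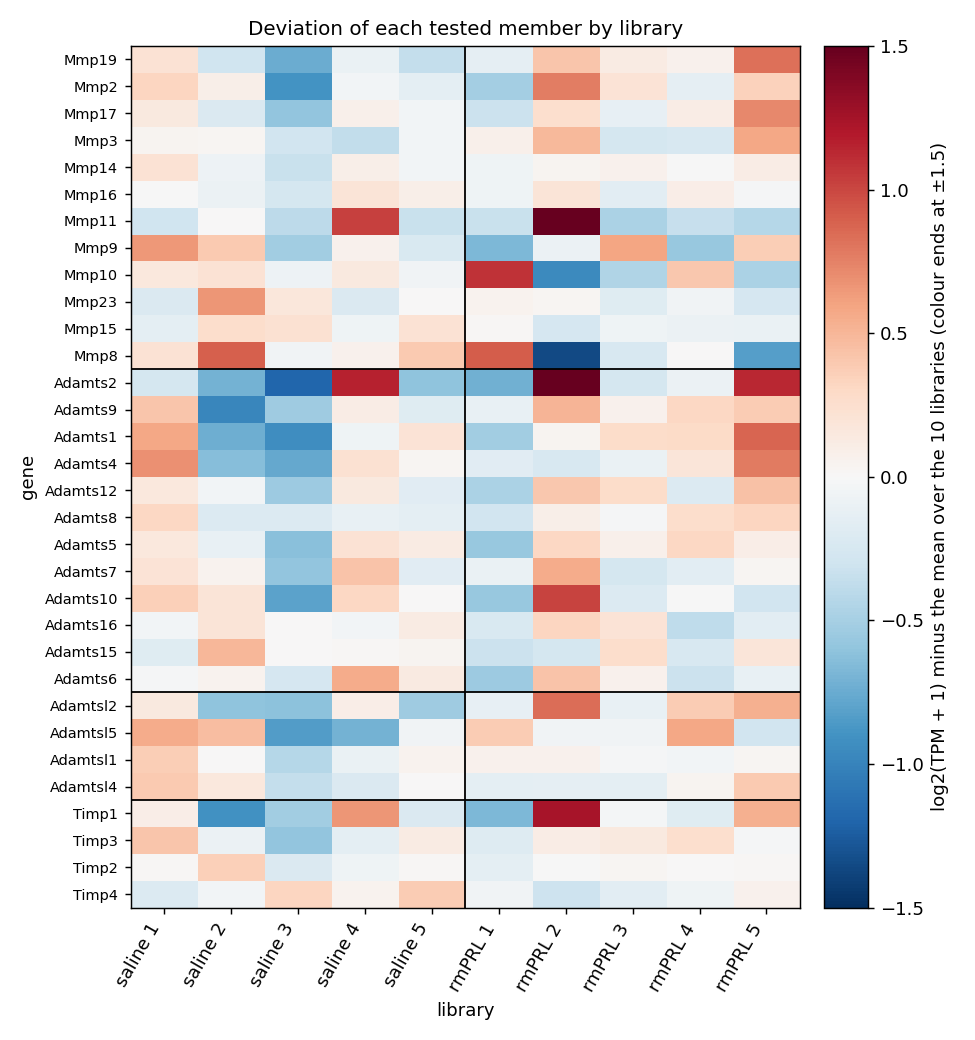
Each tested gene (32 rows) in each library (10 columns) as log2 of TPM + 1 minus the gene's mean over the libraries, red above and blue below it, with the groups split by a vertical line and the families by horizontal lines. Saline 3 is mostly blue, being lowest for 18 genes, and rmPRL 2 holds the darkest red cells, among them Mmp11 and Adamts2.

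Summed markers of fibroblasts, smooth muscle, endothelium and macrophages were, like most of these members, lowest in saline library 3. The 8 fibroblast markers summed to 616 TPM in saline library 3, 1018 to 1535 TPM in the other saline libraries and 991 to 2291 TPM in rmPRL, and all 8 had higher means in rmPRL, none past an adjusted p of 0.05 and 2 at an unadjusted p under 0.05. The 6 smooth muscle markers summed to 1008 TPM in saline library 3, and to 1535 to 2928 TPM in the other saline and 1760 to 2936 TPM in the rmPRL libraries. Both sums were highest in saline library 1 and rmPRL library 5 of their groups, and Adamts1 and Adamts4 were highest there too. The endothelial sum was 56.8 TPM in saline library 3 and highest in rmPRL library 2, at 142 TPM. The macrophage sum was 117 TPM in saline library 3 and highest in rmPRL libraries 5 and 2, at 205 and 199 TPM. The 4 fat markers did not follow this pattern. Their sum was 98.4 TPM in saline library 3, the highest of the saline group, with 16.1 to 59.1 TPM in the other saline libraries and 11.2 to 159 TPM in rmPRL. In bulk tissue, fewer cells of a type and less RNA per cell cannot be told apart.

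With the mean fibroblast marker level of each library as a covariate, 7 of 32 members had the higher value in rmPRL in place of 20, and the members' median difference was -0.12 in place of 0.051. Adamts2 moved from 0.64 to -0.084, Adamts1 from 0.38 to -0.26 and Timp1 from 0.35 to -0.16. The markers had higher means in rmPRL themselves, so its part in these values and that of the treatment cannot be told apart. All 6 endothelial markers and 5 of 6 macrophage markers also had higher means in rmPRL. All 5 secretory epithelium markers had lower means.

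Markers of ovarian cells moved with another set of members. The luteal and theca markers reached summed levels of 367 TPM in saline library 4 and of 422 TPM in rmPRL library 2, while the other 8 libraries held 11.1 to 61.8 TPM. The granulosa markers reached 139 and 277 TPM there and 14.5 to 52.6 TPM elsewhere. In saline library 4 this sum was mostly Inha, at 128 TPM. The granulosa marker Amh was at 1.82 TPM there, under saline library 3 at 4.48 TPM. In rmPRL library 2, Inha was at 209 TPM and Amh at 47.7 TPM. Saline library 4 and rmPRL library 2 were the highest for 6 of 32 tested members (18.8%), against 5.12% of all tested genes: Adamts2, Adamts6, Adamts7, Mmp11, Mmp16 and Timp1. Adamts19, below the filter, was also highest there. Without both libraries, Timp1 had a difference of 0.29 and Adamts2 one of 0.71. The part of ovarian tissue in these levels was not tested. Since rmPRL library 2 is the only diestrus library, its stage, its pool of animals and its ovarian markers cannot be told apart.

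Mmp8 and Mmp10 were lowest in rmPRL library 2, at 5.30 and 1.16 TPM, where Ovgp1 was also lowest, at 4923 TPM. In rmPRL library 4, where Ovgp1 was nearly as low at 5198 TPM, Mmp8 was at 15.2 TPM and Mmp10 at 4.51 TPM, the second highest of the 10. In rmPRL library 5, with Ovgp1 at 5432 TPM, they were at 8.08 and 2.01 TPM. In saline library 2, where Ovgp1 was highest at 10134 TPM, Mmp8 was at 29.1 TPM, nearly its highest value, and Mmp10 at 3.86 TPM. Both were highest in rmPRL library 1, at 29.2 and 7.87 TPM, where Ovgp1 was at 8589 TPM, below saline libraries 1 and 2 and rmPRL library 3. Their levels did not follow that of Ovgp1 in every library.

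**Figure D5:**
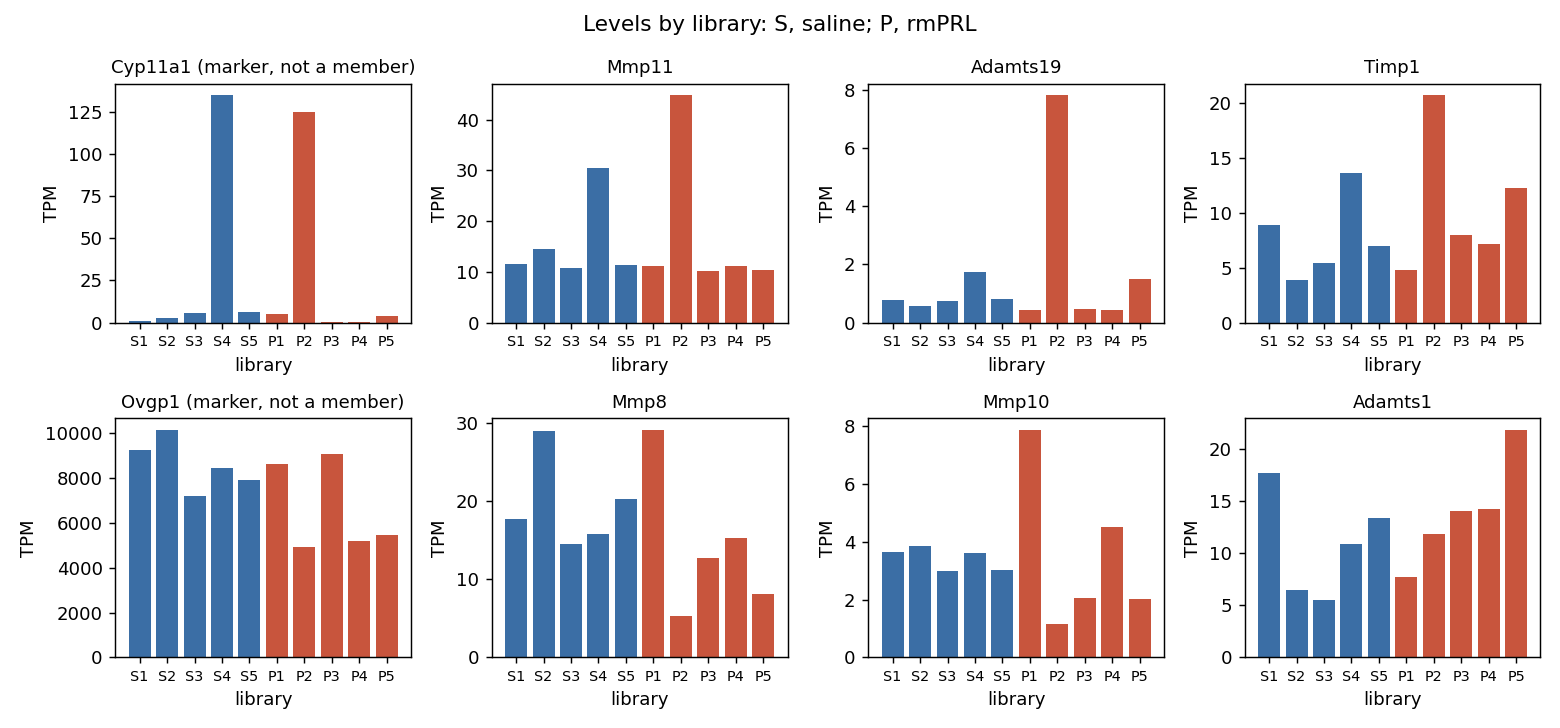
TPM by library (S1 to S5, saline; P1 to P5, rmPRL; 1 bar a library, axes from 0) for the ovarian marker Cyp11a1, the secretory marker Ovgp1 and 6 of the members. Mmp11, Adamts19 and Timp1 are highest in S4 and P2, the libraries with Cyp11a1 at 135 and 125 TPM, and Mmp8 and Mmp10 are lowest in P2.

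The genes around this system were read from lists of known partners. Of the activators and co-receptors, 10 of 11 were tested, and 0 passed an adjusted p of 0.05, with 4 higher and 6 lower means in rmPRL (median log2 difference -0.048). Basigin (Bsg), a cell-surface inducer of Mmp genes, was the most abundant with 580.4 ± 49.1 TPM in saline against 529.8 ± 45.1 TPM with rmPRL (SD, n = 5 each). Klk1, a kallikrein that can activate precursors, was at 2.63 ± 0.306 and 3.37 ± 0.571 TPM (adjusted p = 0.290), and it alone of the list had an unadjusted p under 0.05, at 0.0389.

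Of 13 other inhibitors and clearance receptors, 9 were tested, and 0 passed, with 7 higher and 2 lower means (median 0.081). Serpinh1, the most abundant of the list and counted in these numbers, is a collagen chaperone and not an inhibitor of these proteases. It measured 168 ± 49.8 TPM in saline against 258 ± 91.5 TPM with rmPRL (SD, n = 5 each, adjusted p = 0.316). Of 11 membrane ADAM relatives, 9 were tested, and 0 passed, with 4 higher and 5 lower means. Adam8 was the most abundant at 613 ± 133 and 545 ± 62.2 TPM (adjusted p = 0.614), and Adam28 was at 21.8 ± 2.46 and 15.3 ± 4.65 TPM (adjusted p = 0.210, unadjusted p = 0.0081, the 1 member of the list under 0.05).

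Of 20 matrix substrates, 16 were tested, and 0 passed, with 14 higher and 2 lower means and a median of 0.48 against -0.026 over all genes. Elastin (Eln) measured 15.4 ± 4.97 TPM in saline against 34.2 ± 23.5 TPM with rmPRL (SD, n = 5 each, adjusted p = 0.272, unadjusted p = 0.0307, the 1 member under 0.05), and decorin (Dcn), the most abundant, at 478 ± 128 and 536 ± 62.5 TPM (adjusted p = 0.570). Decorin and 3 of the collagens of this list are also fibroblast markers, so the lists are not independent. Of 10 procollagen processing and lysyl oxidase genes, 7 were tested, and 0 passed, with 6 higher means and 1 lower and 0 at an unadjusted p under 0.05. None of the 3 astacin and meprin relatives reached the filter.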

How the data were processed

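Per the labels, frozen infundibula gave RNA for stranded mRNA libraries. Per the series text and, for tool names, the submitters' processing notes, reads of 100 bases were trimmed with Trimmomatic (quality 15, shortest read 20), aligned to mm10 with HISAT2, then counted by featureCounts and tested by the authors in DESeq2. Tool versions, annotation and strand setting are not given in the sources used here. Values in TPM, named scaled TPM, were deposited by the authors. How they were computed is not stated, and depth is unknown, so no count model was run and no counting interval is given.

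Values of log2(TPM + 1) were fitted in R 4.3.3 with limma 3.58.1 (trend and robust estimation, group only) for the 16131 genes with at least 1 TPM in 5 of 10 libraries, with a two-sided Benjamini-Hochberg threshold of 0.05. Such differences understate changes of low genes. Of 2654 identifiers without a symbol, 2645 were named from the reference table. The fit was tested on simulated data. Coordinates and overlaps are from GENCODE vM21 (GRCm38, the assembly of mm10), promoters from RefSeq GRCm38.p6, and figures were drawn with matplotlib 3.10.9.

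The members, gene lists and tests were chosen with earlier results of these data known. Library values are given for the 5 highest Mmp and Adamts, 3 highest Adamtsl and all Timp genes, members with an unadjusted p under 0.05, and 3 members under the filter with the highest single library. Mmp11, Mmp10, Mmp9, Mmp3, Mmp13, Adamts9 and Adamts5 were named after their values were seen. Of the list genes, 1 is not reported here. Alternatives were 23 other settings of pseudocount, filter, scaling, fit, covariate and libraries.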

Additional observations from a re-analysis of the deposited data

Results flagged for a closer look

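Of 58 groups of 5 libraries (29 members in 2 treatments), 8 held a library farther from the others than Dixon's 95% critical value allows. The nominal rate of about 1 in 20 is no measure for them, since some of these members, Adamts19 and Mmp11 among them, were named for a high library or after their values were seen. Over all tested genes 7.14% of groups held such a library, and over the 32 tested members 7 of 64 groups (10.9%), so these flags are given as values. These flags fell on rmPRL library 2 for Mmp11 at 44.8 TPM (others 10.1 to 11.3), Adamts10 at 43.2 TPM (others 13.8 to 20.8) and Adamts19 at 7.82 TPM (others 0.429 to 1.49). They fell on saline library 4 for Mmp11 at 30.4 TPM (others 10.8 to 14.5), Adamts2 at 12.9 TPM (others 1.74 to 4.21) and Adamts19 at 1.74 TPM (others 0.564 to 0.820). The others were Adamts15 in saline library 2 at 18.7 TPM (others 11.3 to 13.3) and Timp2 in rmPRL library 1, which was low at 84.8 TPM (others 93.5 to 96.3). Saline library 4 and rmPRL library 2 are those with high Cyp11a1, and the part of ovarian tissue was not tested.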

How the results depend on the processing

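No member passed an adjusted p of 0.05 under any of the 23 alternatives, and the lowest adjusted p in any was 0.0685, for Adamtsl2 with array weights. The number of all genes past it, 4 in the fit as reported, was 0 with no filter, 270 with array weights, 2 with the replicate number as a block, 0 without saline library 4 and rmPRL library 2, 0 with the fibroblast covariate and 1 to 17 with a library left out. Members at an unadjusted p under 0.05, 2 as reported, numbered 4 with no filter, 4 at a minimum of 0.5 TPM, 0 at 5 TPM, 5 with array weights, 1 with the replicate block, 1 without those libraries, 0 with the covariate and 0 to 5 with a library left out. The deviations of same-numbered libraries had correlations of -0.248 to 0.108, and for replicate 3 the same number was the best match. The titles do not say what the numbers mean, and correlations over all genes cannot exclude a pairing. Of the 2588 genes at an unadjusted p under 0.05, 990 were higher in rmPRL, and after quantile normalization 1384 of 2638.

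Of 625 values of named members under alternatives, 582 kept their sign and 43 turned, none past the threshold. With the fibroblast covariate, the log2 differences that turned were Timp3 -0.12, Mmp14 -0.097, Mmp23 0.031, Mmp2 -0.16, Adamts1 -0.26, Timp1 -0.16, Adamts4 -0.35, Adamts2 -0.084, Adamts5 -0.24, Mmp10 0.15, Adamtsl1 -0.11 and Adamtsl4 -0.23. Mmp11 turned to 0.0194 after quantile normalization, 0.0191 after median of ratios scaling and 0.0170 with mitochondrial genes and the 50 highest genes left out of the total. Without saline library 4 and rmPRL library 2, Mmp10 turned to 0.079, Adamtsl4 to -0.015 and Adamts19 to -0.052. With a library or these 2 left out, the range was 0.077 to 0.43 for Mmp2, -0.26 to -0.015 for Mmp23, 0.19 to 0.57 for Adamts1, 0.013 to 0.38 for Adamts4, -0.24 to -0.048 for Adamts15, 0.049 to 0.40 for Adamtsl5, -0.28 to 0.11 for Adamts10, -0.19 to 0.47 for Adamts19, -0.053 to 0.24 for Adamts5, -0.059 to 0.14 for Adamtsl1, -0.095 to 0.10 for Adamtsl4, -0.45 to 0.079 for Mmp10, -0.40 to 0.25 for Mmp11, -0.39 to 0.015 for Mmp12, -0.019 to 0.12 for Mmp14, -0.31 to 0.0090 for Mmp9, -0.098 to 0.045 for Timp2 and -0.015 to 0.24 for Timp3. The causes were not tested.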
